A study of Mus musculus with 2 samples.

Results

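The 10 genes described here encode the machinery that shapes chromosome loops. They are Ctcf, the cohesin ring subunit genes Smc1a, Smc3 and Rad21, the genes of the ring-bound subunits Stag1 and Stag2, the cohesin loader genes Nipbl and Mau2, and Wapl and Pds5a, whose products help take cohesin off DNA. The genes were chosen by name, all 10 were found among 21755 protein-coding genes, and their positions were set against a list of 7610 chromatin boundaries. Cohesin loads on DNA and extrudes it into a growing loop until it meets CTCF bound in the right orientation, so that CTCF sites often mark the edges of domains within which sequences touch more often than across. The question here was where boundaries stood around the genes that encode this machinery.

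The boundaries came from in situ Hi-C, a method that joins DNA ends lying close together in the fixed nucleus and reads the joined pairs by sequencing. Mature olfactory sensory neurons were obtained by FACS from olfactory epithelium. The donors were adult mice of mixed sex, and the strain is not specified. All of them carried a conditional deletion of Ldb1, a cofactor that joins transcription factors, made by Cre under control of Omp, a marker gene of these neurons once they mature. The 2 biological replicates of 1000000 cells each were pooled before boundaries were called, no group without the deletion was analysed here, and the labels do not say whether animals were pooled. The list holds positions and strengths but no expression values, so neither the cell type nor the loss of Ldb1 could be checked in it. Each value below is therefore 1 value from 1 pooled list, with no replicate error, no known sequencing depth and no test between conditions.

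A boundary is a 5 kb bin that few contacts cross. The authors gave each a strength, a score whose scale is not given, and a class, strong or weak. Every strong boundary scored at least 0.500 and every weak one less. Over the list 4022 boundaries (52.9%) were strong and 3588 weak, the strengths ran from 0.200 to 4.13, and their median was 0.538. A domain is the stretch between the boundaries on either side of a transcription start site (TSS), which was taken as the 5′ end of the gene in GENCODE M21.

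By the 5′ end of the gene in GENCODE M21, the cohesin loaders and Pds5a started beside a boundary, and the other 7 genes did not. The distance from TSS to nearest boundary was 1.73 kb for Pds5a, 2.73 kb for Mau2 and 5.54 kb for Nipbl. The next were Stag1 at 42.2 kb, Smc3 at 44.6 kb, Ctcf at 63.4 kb and Wapl at 68.9 kb. Rad21 at 107 kb, Stag2 at 129 kb and Smc1a at 189 kb lay farthest. Thus 3 of 10 genes (30%) lay within 10 kb of a boundary, where 14.3% of all protein-coding TSSs did, and no gene lay between 5.54 and 42.2 kb. Both the count and the genes in it depend on the start site taken. Of the 7 protein-coding transcripts of Stag1, 4 started inside a strong boundary bin. By the nearest coding transcript start of each gene, 4 of 10 were thus within 10 kb, against 16.1% of all genes. The RefSeq gene start put Nipbl at 10.3 kb, which left 2 of 10, against 14.4% of all. Within 50 kb there were 5 of 10, against 45.3% of all, and a strong boundary lay within 10 kb of 1 of 10 (Nipbl), against 9.3% of all. The median distance was 54.0 kb for the 10 genes and 56.6 kb for all protein-coding genes, and 5 genes lay on each side of the latter. To the nearest strong boundary the order turned, with 159 kb for the 10 genes and 101 kb for all.

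**Figure D1:**
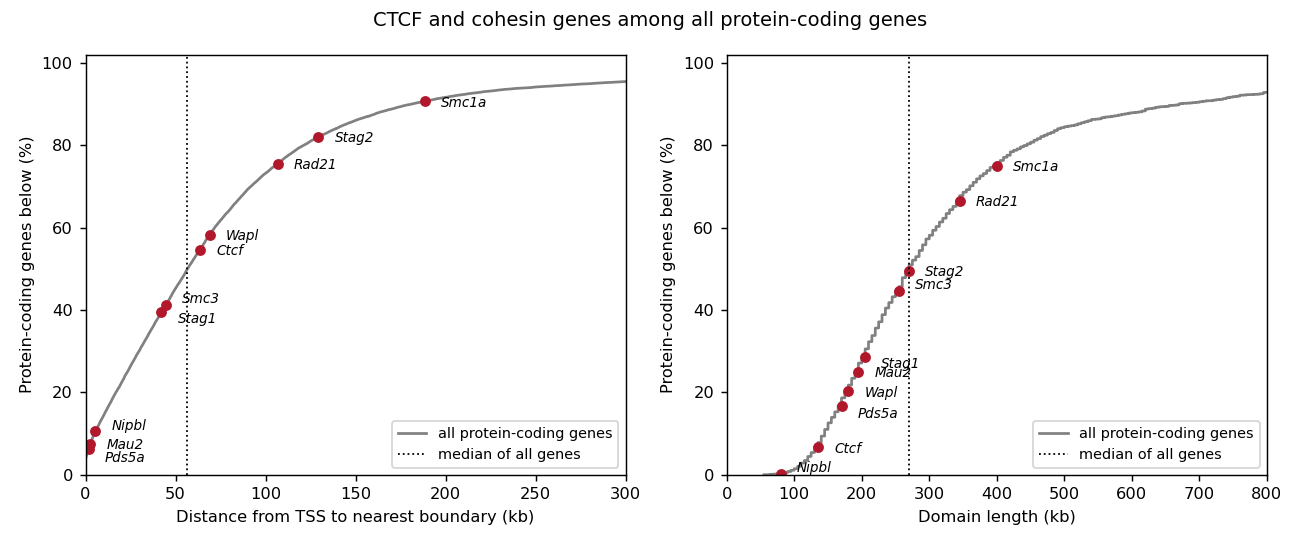
Distance from the TSS to the nearest boundary (left, kb) and length of the domain that holds the TSS (right, kb) for the 10 genes (red points) on the cumulative share of all protein-coding genes (grey line, %). Pds5a, Mau2 and Nipbl sit below 10 kb on the left, and Nipbl, at 80 kb, sits at the bottom of the domain lengths on the right.

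Most of the boundaries nearest to these genes were of low or middling strength. The nearest boundary was strong for 5 genes (Wapl 0.917, Nipbl 0.740, Stag1 0.648, Stag2 0.562 and Smc1a 0.528) and weak for the other 5 (Smc3 0.443, Rad21 0.437, Pds5a 0.426, Mau2 0.307 and Ctcf 0.225). The median of these 10 strengths was 0.486. Over all protein-coding genes the nearest boundary had a median strength of 0.659 and was strong for 63.3%. The boundary of Wapl was just above 0.911, the median of the strong class, and the other 9 were below it.

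**Figure D2:**
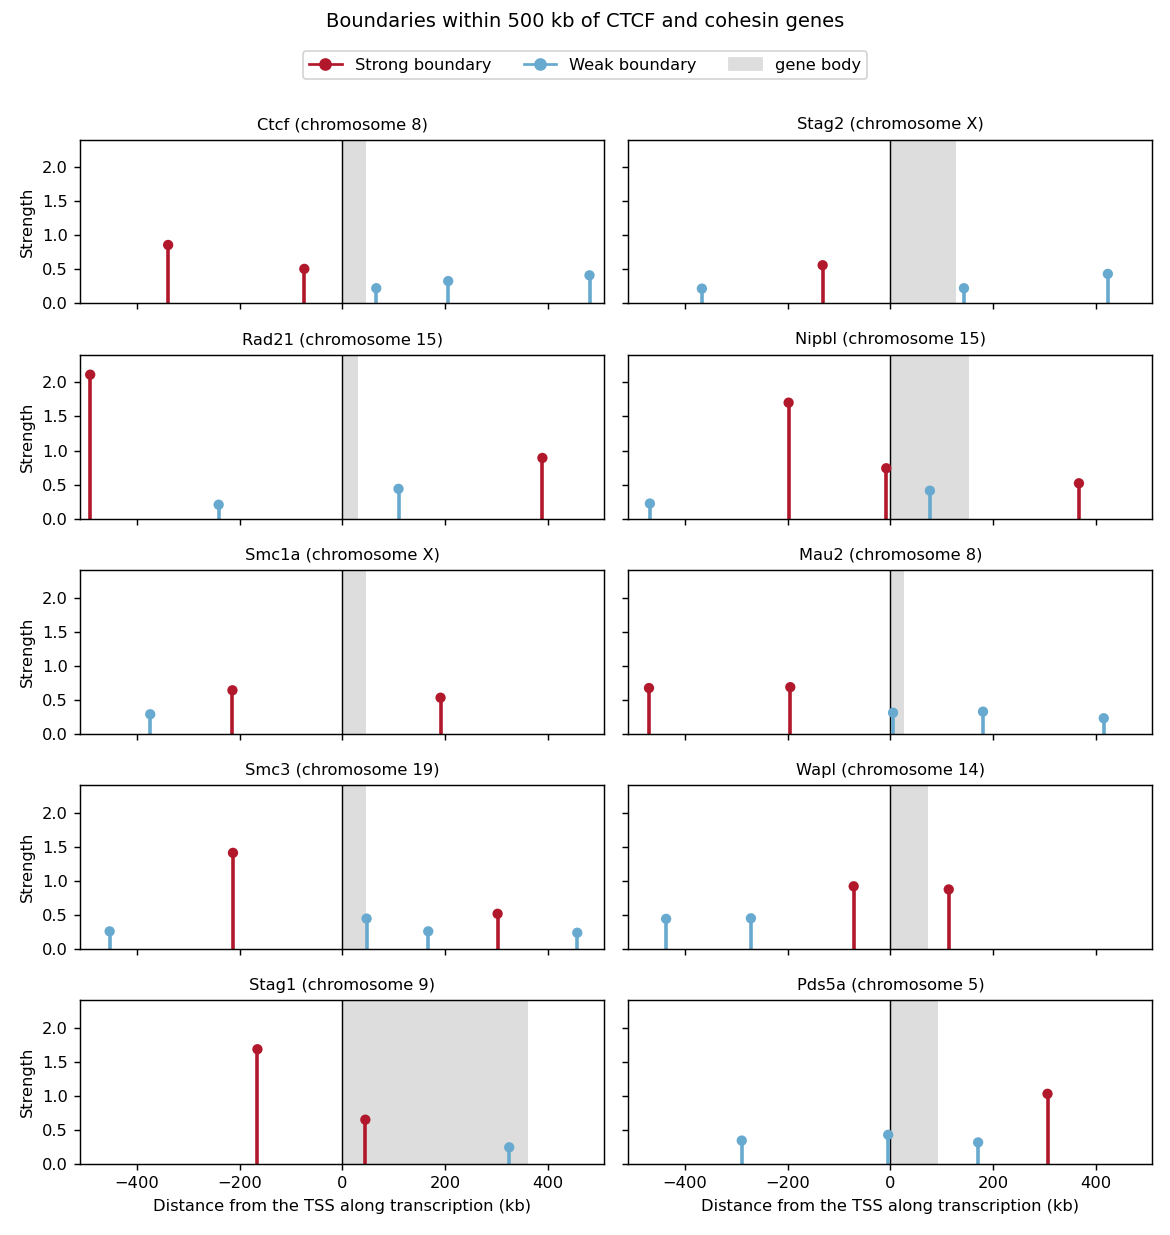
Strength of each boundary (score, no unit) against its distance from the TSS along the direction of transcription (kb) for the 10 genes, with strong boundaries in red, weak ones in blue and the gene body shaded. Boundaries stand at the start of Nipbl, Mau2 and Pds5a, and within Stag1, while the nearest ones of Smc1a and Stag2 lie over 100 kb from the TSS.

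Most domains were shorter than that of the median gene. Their lengths were 80 kb for Nipbl, 135 kb for Ctcf, 170 kb for Pds5a, 180 kb for Wapl, 195 kb for Mau2 and 205 kb for Stag1. Smc3 had 255 kb, Stag2 270 kb, Rad21 345 kb and Smc1a 400 kb. The median was 200 kb, against 270 kb over all protein-coding genes with a boundary on both sides, and 7 genes lay below that value, 2 above it and Stag2 on it. Stag1 was counted there by its 5′ end. From its start sites inside a boundary bin, its domain was 275 kb, above that value. By the nearest coding transcript start of each gene, the median was 225 kb for the 10 genes and 270 kb for all. With strong boundaries alone the direction turned, at 602.5 kb for the 10 genes and 465 kb for all. The median number of protein-coding TSSs in a domain was 3.5 for the 10 genes and 5 for all.

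**Figure D3:**
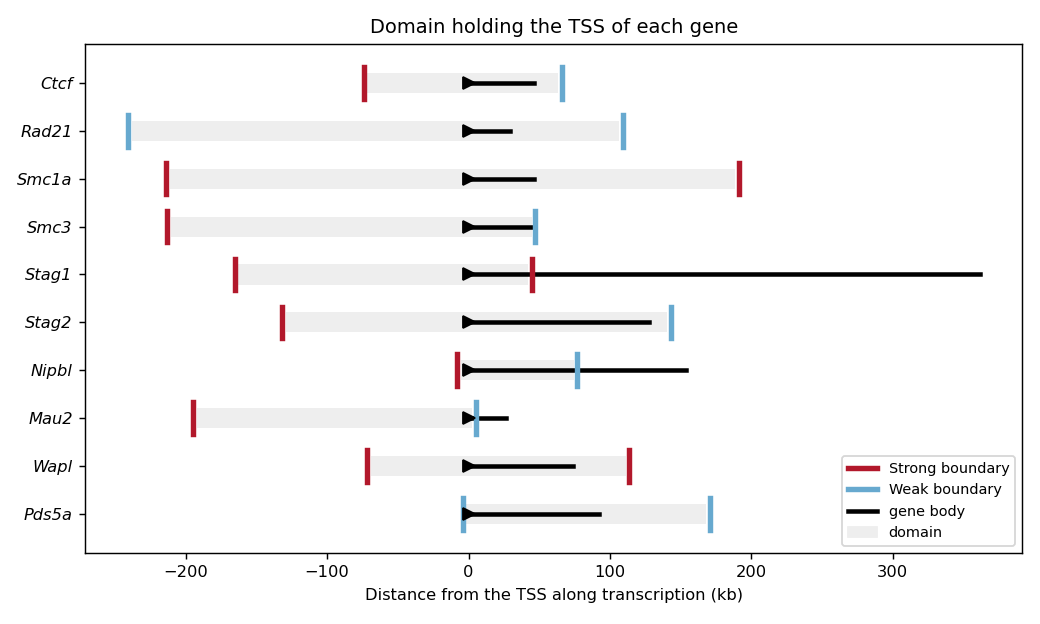
The domain of each gene (grey bar), its flanking boundaries (red strong, blue weak) and the gene body (black line, arrowhead at the TSS), drawn to scale in kb along the direction of transcription. The bodies of Stag1, Nipbl and Mau2 run through a boundary, and that of Smc3 ends in one.

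The sequences at the starts of Stag1, Mau2 and Pds5a are shown because a boundary bin stood over or beside each of them. They are RefSeq promoter windows on GRCm38.p6, from 250 bases before to 50 bases after a start site, with each CpG dinucleotide in capitals.
Stag1 promoter, chr9:100643198-100643497, forward strand: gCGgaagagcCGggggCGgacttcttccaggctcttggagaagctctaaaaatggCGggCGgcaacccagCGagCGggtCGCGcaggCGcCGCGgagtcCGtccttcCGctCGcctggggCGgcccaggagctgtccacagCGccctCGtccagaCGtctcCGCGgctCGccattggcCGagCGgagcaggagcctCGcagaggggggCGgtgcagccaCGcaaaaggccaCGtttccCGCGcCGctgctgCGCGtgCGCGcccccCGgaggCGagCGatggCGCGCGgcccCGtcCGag
Mau2 promoter, chr8:70042685-70042984, reverse strand: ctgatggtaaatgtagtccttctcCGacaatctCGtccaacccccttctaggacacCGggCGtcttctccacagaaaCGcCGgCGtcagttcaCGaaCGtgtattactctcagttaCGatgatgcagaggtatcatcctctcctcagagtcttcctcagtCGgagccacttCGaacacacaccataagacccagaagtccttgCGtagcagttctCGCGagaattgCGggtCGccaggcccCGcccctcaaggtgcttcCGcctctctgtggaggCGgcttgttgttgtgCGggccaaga
Pds5a promoter, chr5:65698187-65698486, reverse strand: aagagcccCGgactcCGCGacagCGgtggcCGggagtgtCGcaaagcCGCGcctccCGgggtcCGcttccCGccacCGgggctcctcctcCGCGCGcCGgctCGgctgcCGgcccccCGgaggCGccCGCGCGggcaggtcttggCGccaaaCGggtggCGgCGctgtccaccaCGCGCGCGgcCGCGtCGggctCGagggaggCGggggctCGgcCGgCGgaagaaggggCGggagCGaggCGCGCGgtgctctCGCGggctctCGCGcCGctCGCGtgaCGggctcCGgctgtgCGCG
The windows held 43 CpGs for Stag1, 21 for Mau2 and 55 for Pds5a, against a median of 7 over 32619 RefSeq promoter windows. Windows were found for 7 of the 10 genes (Ctcf, Smc1a, Smc3, Stag1, Mau2, Wapl and Pds5a). Smc1a held 23 CpGs, Smc3 32, Wapl 35 and Ctcf 47. The lowest of the 7 main windows was thus 21, a count that 25.0% of all windows reached. Since 21 was taken from these windows, that all 7 reach it is no result. A second, internal Mau2 start site had 1 and was left out of the 7, whereas the windows over all genes were not so chosen. No window held the TATA box letters TATAAA on either strand, which 13.7% of all windows hold.

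Ctcf encodes the zinc finger protein at which extruding cohesin halts. It lies on chromosome 8 (105636568 to 105682922, forward strand, GRCm38) and is 46.4 kb long. Its domain of 135 kb held the whole gene, with the TSS near its middle, 53.0% of the way from its left end, and 6.67% of protein-coding genes had a shorter domain. The nearest boundary, downstream (105700001 to 105705000), was weak at 0.225, where 7.46% of the list scored lower, and overlapped exons of Acd, which encodes a telomere protein, Pard6a, a cell polarity gene, and Enkd1. On the other side, 71.6 kb upstream, stood a boundary just over the strong limit (0.509; 105560001 to 105565000) in an intron of Atp6v0d1, a proton pump subunit gene, and 1.05 kb from its TSS.

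The domain of Ctcf also held the TSSs of Atp6v0d1, Agrp, Ripor1 and Carmil2. In this annotation the 5′ end of Agrp, the agouti-related peptide gene, lies on the opposite strand 0.825 kb inside Ctcf, and Ripor1 starts 31.3 kb upstream. The region was dense in genes, with 49 other protein-coding TSSs within 500 kb of that of Ctcf, where the median gene had 16. Of the 5 boundaries in that window 2 were strong, and the strongest (0.860) overlapped the start of Exoc3l.

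Among the ring subunits, Smc1a and Rad21 started 189 and 107 kb from a boundary, and Smc3 ended at one. The domains of Smc1a and Rad21 were longer than the 270 kb of the median gene, but that of Smc1a was near the 385 kb median of its chromosome. Smc3 encodes an ATPase arm of the ring and lies on chromosome 19 (53600398 to 53645833, forward strand). A weak boundary (0.443; 53645001 to 53650000) overlapped its last bases, 44.6 kb from the TSS, so that 98.2% of the gene was inside a domain of 255 kb. The left end of that domain was strong (1.41; 53385001 to 53390000), 0.578 kb from the TSS of Smndc1, a splicing factor gene. Dusp5, which encodes a MAP kinase phosphatase, and Nutf2-ps1 shared the domain, and the next gene downstream, Rbm20, a splicing regulator gene, started 76.9 kb from the TSS of Smc3 and past the boundary.

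Rad21 encodes the kleisin that closes the ring. It lies on chromosome 15 (51962240 to 51991747, reverse strand), 107 kb from a weak boundary (0.437; 51880001 to 51885000) that overlapped an exon of Utp23, a gene of ribosome assembly. The other end of its 345 kb domain was among the weakest of the list (0.204; 52230001 to 52235000), 238 kb away, outside protein-coding genes and 60.6 kb from the TSS of Slc30a8, a zinc transporter gene. With strong boundaries alone the domain of Rad21 ran 875 kb, from a boundary of 0.891 to one of 2.11. The latter (52480001 to 52485000) was the strongest of those within 500 kb of any of the 10 genes and ranked 158 in the list. The gene had few neighbours, with Aard, 48.4 kb upstream, as the only other protein-coding TSS in the domain and 4 within 500 kb.

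Smc1a, the other ATPase arm, lies on the X chromosome (152016428 to 152062694, forward strand). Its nearest boundary, 189 kb downstream (0.528; 152205001 to 152210000), overlapped an exon of Iqsec2, a synaptic exchange factor gene, and the TSS nearest to it was that of the histone demethylase gene Kdm5c, 23.0 kb off. The upstream one, 211 kb away (0.637; 151800001 to 151805000), lay at the start of Huwe1, a ubiquitin ligase gene. Both were strong by the authors' class. On this chromosome the median boundary strength was 0.341, the median gene lay 86.3 kb from a boundary in a domain of 385 kb and 28.8% of boundaries were strong. Against genes of chromosome X, 75.8% were closer to a boundary than Smc1a, and 51.8% had a shorter domain than its 400 kb. Ribc1 started 0.133 kb away on the opposite strand, and Hsd17b10, a mitochondrial dehydrogenase gene, 14.6 kb away.

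Of the paralogous subunits Stag1 and Stag2, which bind the ring through Rad21, Stag1 was cut by boundaries and Stag2 was whole within its domain. Stag2 lies on chromosome X (42149317 to 42277185, forward strand). Its domain of 270 kb held the 128 kb gene and 1 other protein-coding TSS, that of Xiap, which encodes an inhibitor of apoptosis, 89.6 kb upstream. The next TSS downstream, that of Tex13c2, was 340 kb away and outside the domain. The left end was strong (0.562; 42015001 to 42020000), and the right end, 141 kb from the TSS, was weak (0.224; 42290001 to 42295000). With strong boundaries alone the domain of Stag2 ran 2385 kb, the longest of the 10. By distance to a boundary Stag2 lay above 65.3% of the genes of chromosome X.

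Stag1 is the longest of the 10 genes, at 362 kb (chromosome 9, 100597798 to 100959375, forward strand). A strong boundary (0.648; 100640001 to 100645000) and a weak one (0.242; 100920001 to 100925000) lay inside it. The 5′ end used above belongs to 1 transcript. Of the 7 protein-coding transcripts of Stag1, 4 started inside the strong bin, at 3 start sites, 45.7 kb or more past the first one. The transcripts of 315 kb that span most of the gene were among these 4. The upstream start site lay 42.2 kb before the bin in a domain of 205 kb, shared with Il20rb, Nck1, an adaptor protein gene, and Slc35g2. The next gene downstream, Pccb, which encodes a mitochondrial carboxylase subunit, started 437 kb away and past both boundaries. From the start sites in the bin, transcription ran into a domain of 275 kb that ended at the weak boundary in an intron. The other 2 transcripts started past the bin, 74.95 and 30.4 kb from their nearest boundary. By the start site taken, Stag1 was therefore at 0, 30.4, 42.2 or 74.95 kb. Counted by 1 TSS per gene, 3.86% of all protein-coding TSSs lay inside a boundary bin. The share of genes with any start site in a bin is not given.

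**Figure D4:**
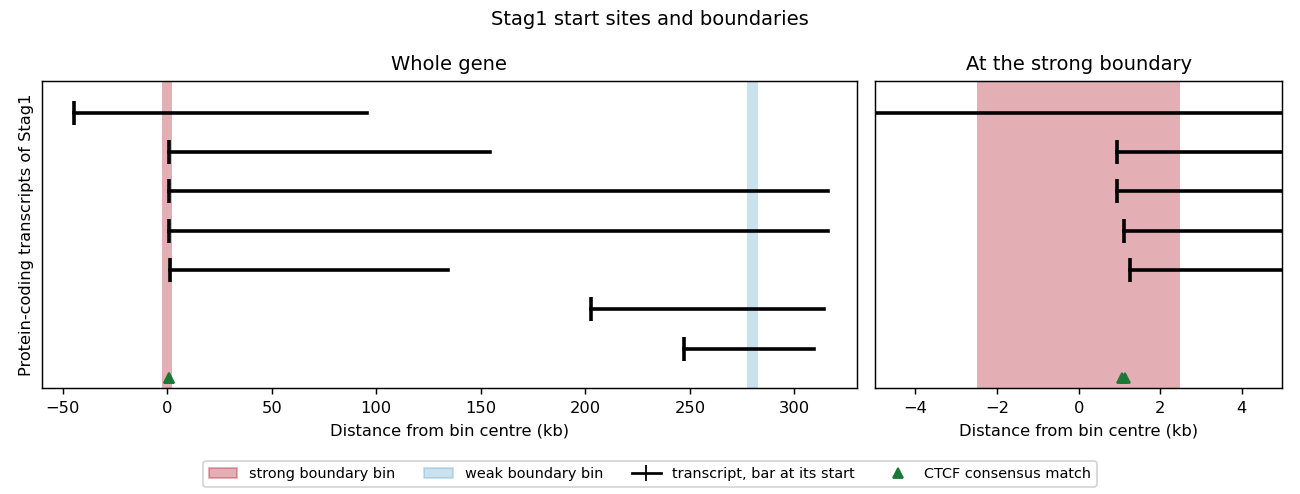
The 7 protein-coding transcripts of Stag1 (black lines, vertical bar at the start) against distance from the centre of the strong boundary bin (kb), over the whole gene (left) and within 5 kb of the centre (right), with boundary bins shaded and CTCF consensus matches as triangles. Of the 7 transcripts 4 start inside the strong bin, where 2 consensus matches also lie.

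The loaders Nipbl and Mau2 form 1 complex, and both genes started near a boundary and were crossed by one. Nipbl lies on chromosome 15 (8290617 to 8444463, reverse strand). The boundary beside its start was strong (0.740; 8450001 to 8455000) and, in GENCODE M21, upstream of the TSS and outside protein-coding genes. A weak boundary (0.409; 8365001 to 8370000) overlapped an exon close to the middle of the gene, 74.5 kb from its start and 74.4 kb from its end. Between them lay a domain of 80 kb with no other protein-coding TSS, which held 48.4% of the gene. The next TSSs, those of Gm2310 75.5 kb upstream and Cplane1, a gene of cilium assembly, 275 kb downstream, both lay outside it. A shorter domain was found for 0.251% of protein-coding genes and for 2.05% of those on chromosome 15. RefSeq sets the 5′ end of Nipbl farther upstream, at 8465315 and 10.3 kb beyond the strong boundary, which put it in a domain of 185 kb on the other side. By that start the strong boundary lies inside the gene, downstream of its 5′ end. The strongest boundary within 500 kb (1.70; 8640001 to 8645000) overlapped an exon of Slc1a3, a glutamate transporter gene.

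Mau2 lies on chromosome 8 (70016123 to 70042734, reverse strand). A weak boundary (0.307; 70035001 to 70040000) overlapped exons within the gene, 2.73 kb downstream of the TSS, and left 10.3% of the gene on the side of its start. That side was a domain of 195 kb ending at a strong boundary (0.683; 70235001 to 70240000) in Sugp2, 0.535 kb from the TSS of Armc6. Gatad2a, a gene of a chromatin remodelling complex, started 46.35 kb downstream of the Mau2 TSS and outside the domain, which was the most gene-rich of the 10, with 13 protein-coding TSSs, among them Ncan, which encodes the matrix protein neurocan, and the transcription factor gene Mef2b. Sugp1, a splicing factor gene, started 0.079 kb from Mau2 on the opposite strand and so lay as close to the boundary, at 2.81 kb. Together with Ctcf and Smc1a, Mau2 was 1 of 3 genes with a protein-coding TSS of the opposite strand within 1 kb, as 10.9% of all protein-coding genes had.

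Wapl and Pds5a act together to open the ring, and each was whole within its domain. Wapl lies on chromosome 14 (34673928 to 34747983, forward strand) and was the only protein-coding gene to start in a domain of 180 kb. Both ends were strong and of like strength, at 0.917 upstream (34600001 to 34605000), over the start of the melanopsin gene Opn4, and 0.871 downstream (34785001 to 34790000), 30.1 kb before the glutamate receptor gene Grid1. Since both are strong, the domain of Wapl was the same 180 kb with strong boundaries alone. The same held for Smc1a at 400 kb and for Stag1, by its 5′ end, at 205 kb.

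Pds5a, which also has a part in holding cohesin on DNA, lies on chromosome 5 (65605721 to 65698273, reverse strand). Its TSS was the nearest of the 10 to a boundary, a weak one (0.426; 65700001 to 65705000) upstream of it and outside protein-coding genes. The domain of 170 kb ran from there through the gene to another weak boundary (0.314; 65525001 to 65530000) in an intron of Smim14. Ube2k, a ubiquitin-conjugating enzyme gene, and Smim14 started at that far end, 161 kb away, while N4bp2 started 65.2 kb upstream and past the boundary. The nearest strong boundary to Pds5a was 303 kb away, at Rpl9, a ribosomal protein gene.

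Over both sides, the 10 genes had 20 distinct flanking boundaries, of which 11 (55%) were strong, close to the 52.9% of the whole list. Their strengths ran from 0.204, beside Rad21, to 1.68, beside Stag1. The median was 0.518, against 0.538 over the whole list. Both flanks were strong for Smc1a, Stag1 and Wapl, both were weak for Rad21 and Pds5a, and the other 5 genes had 1 of each. Stag1 was counted by its 5′ end. From its start sites in the strong bin, the domain ended at a weak boundary (0.242). A protein-coding TSS lay within 10 kb of 11 of the 20, where 31.1% of all boundaries had one. Of these, Nipbl, Mau2 and Pds5a put their own starts there. The 20 were picked as flanks of protein-coding genes and the whole list was not, so the 2 shares are not alike. An exon was overlapped by 11 of the 20, and 7 lay outside protein-coding genes. No share over all boundaries is given for either count, so whether they are usual cannot be told.

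A boundary bin overlapped 4 of the 10 gene bodies (Stag1 with 2, and Smc3, Nipbl and Mau2 with 1 each). Over all protein-coding genes the share was 16.2%. These genes were long, with a median of 60.2 kb against 17.4 kb for all, and among the 9714 protein-coding genes of 20 to 400 kb 24.1% had a boundary inside.

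The sequences that CTCF recognises were sought at the 20 flanking boundaries as exact matches to a CTCF consensus of 12 letters, and the matches found are shown in capitals with 8 bases on each side, read along their own strand (GRCm38).
Stag1, nearer match, chr9:100643565-100643592, forward strand: cagcgcggCCAGCAGAGGGCggtcggga
Stag1, farther match, chr9:100643623-100643650, forward strand: ggaaaatgCCACCAGATGGCgggttagg
Wapl, left boundary, chr14:34600748-34600775, reverse strand: ggaagagcCCAGCAGAGGGCtggagttt
Smc3, left boundary, chr19:53394776-53394803, forward strand: caaaacttCCACTAGGTGGCagtcagga
Pds5a, left boundary, chr5:65535551-65535578, forward strand: tcttatcaCCACTAGGGGGCtctgctag
Ctcf, right boundary, chr8:105714343-105714370, forward strand: gccttcttCCAGTAGGGGGCgctgcagg
A match is a sequence and not a measure of binding. Within 10 kb of the bin, 5 of the 20 boundaries had a match, where 24.4% of all boundaries had one. The 2 matches at Stag1 lay inside its strong bin, in exon sequence 125 and 183 bases past the first start site in the bin. Of the 6 matches, 4 pointed out of the domain that holds the TSS of the gene and 2 into it. Both matches at Stag1 were on the forward strand, and so pointed out of the domain of its upstream start site and into the one of 275 kb past the bin. The match at the left boundary of Wapl was also inside the bin, and it pointed out of the domain of Wapl. Those at Smc3 and Pds5a lay 4.78 and 5.56 kb from the bin and pointed into the domain. The match at Ctcf itself lay 9.35 kb beyond its weak right boundary, in an exon of Gfod2, and pointed out of the domain. No match lay within 10 kb of a flanking boundary of Rad21, Smc1a, Stag2, Nipbl or Mau2. Of the genes themselves, Stag1, the longest, held 2 matches and the other 9 held none. The share of all protein-coding genes that hold a match is not given, so whether this is usual cannot be told.

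YY1 is a zinc finger protein that, like CTCF, takes part in loops, so the promoter windows were also searched for its core CCATNTT on either strand. It was found in 3 of 7 main windows, and 16.1% of all 32619 windows hold it. The letters CCAAT of another promoter element, also searched, were likewise found in 3 of 7 (Smc1a, Stag1 and Wapl), and 37.6% of all windows hold them. The YY1 cores are shown in capitals, within 10 bases on each side.
Ctcf, chr8:105636539-105636565, forward strand: cgcgccgccgCCATTTTgtgtccgagc
Smc3, chr19:53600387-53600413, forward strand: gcggccgccgCCATTTTgtttggccac
Stag1, chr9:100643236-100643262, forward strand: agaagctctaAAAATGGcgggcggcaa
In Ctcf the core began 11 bases after the start site of its window and in Smc3 1 base after it. In Stag1 it lay on the opposite strand, 202 bases before the start site of its window. The window start sites of Ctcf (105636538) and Stag1 (100643448) are not their RefSeq gene starts (105636474 and 100597709). A match describes these windows and says nothing of whether the protein binds.

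Other genes of the same pathways were read from 3 lists. Of 16 other cohesin genes, 4 (25%) started within 10 kb of a boundary, and their median distance was 37.2 kb. These were Smc1b, a meiotic ring subunit gene whose TSS lay in a strong bin (0.949), the acetyltransferase gene Esco2 (1.01 kb; 0.503), the helicase gene Ddx11 (3.52 kb; 1.21) and Pds5b, the paralogue of Pds5a (3.74 kb; 0.422). Pds5a and Pds5b thus both started beside a weak boundary, but the domain of Pds5b was 695 kb long against 170 kb for Pds5a. Farthest away were Esco1 (85.4 kb) and Rad21l (81.5 kb), a meiotic kleisin gene.

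Of 14 genes of condensin and the Smc5/6 complex, which compact or repair chromosomes with rings like that of cohesin, 2 (14.3%) were within 10 kb: Ncapg at 0.082 kb (strength 0.557) and Smc5 at 6.10 kb (1.39). The median distance was 67.4 kb, and Ncaph2 (249 kb) and Smc4 (130 kb) lay farthest. Of 5 zinc finger genes with architectural roles, Yy1 started inside a weak bin (0.467) and Vezf1 8.28 kb from a weak boundary (0.299), while Zfp143 (58.8 kb) and Maz (42.0 kb) were farthest. The background for each list is the 14.3% of all protein-coding genes.

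**Figure D5:**
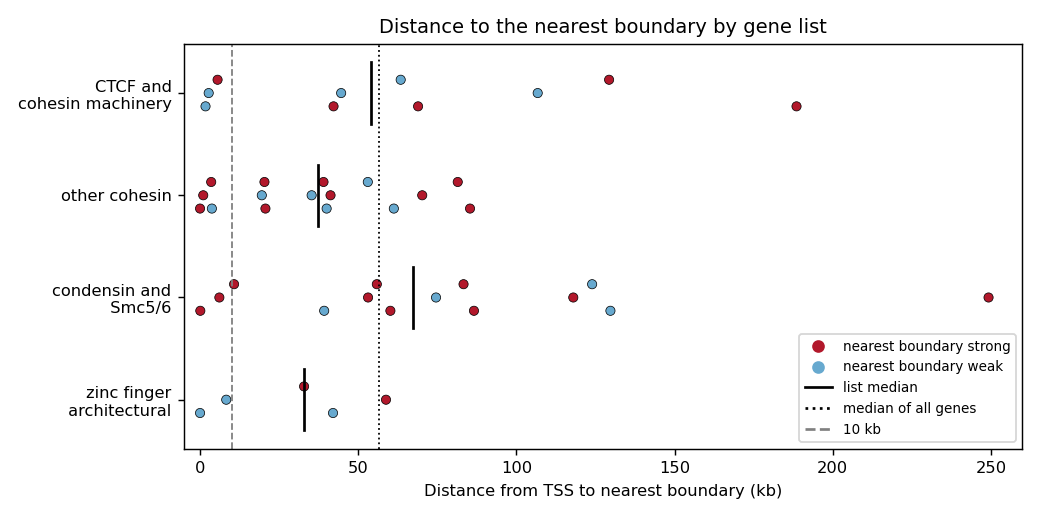
Distance from TSS to nearest boundary (kb) for each gene of the 4 lists, coloured by the class of that boundary, with the median of each list (black bar), the median of all protein-coding genes (dotted line, 56.6 kb) and the 10 kb limit (dashed line). The 10 machinery genes spread from 1.73 to 189 kb, and the medians of the lists run from 32.9 to 67.4 kb.

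Boundaries were as many around these genes as around the median gene. Within 500 kb of the TSS they had from 3 to 6, with a median of 4, of which a median of 2 were strong, and all protein-coding genes had medians of 4 and 2. The number of other protein-coding TSSs in the same window had a median of 10 against 16 and ran from 4, at Rad21 and Stag2, to 49 at Ctcf, with 43 at Mau2.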

How the data were processed

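In situ Hi-C of 2 biological replicates of 1 group was available as 1 boundary list. The authors combined the contacts of both replicates into 1 matrix on GRCm38 and called boundaries on it, per the labels' design text. Neither the caller nor its version or window is given in the sources used here. Boundary strength is a score computed by the authors and deposited for each 5 kb bin; its scale is not given, and it was used only to rank or describe boundaries. The depth behind each boundary is unknown.

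Gene positions came from GENCODE M21, promoter windows and alternative gene starts from RefSeq GRCm38.p6. Distances ran from the TSS to the nearest edge of a bin (0 inside), and the domain of a TSS in a bin was taken on the side of transcription. The CTCF consensus was searched on both strands of 20 chromosomes (12728 matches). Distance and domain functions were tested on simulated boundaries. Python 3.11.15, numpy 2.4.6, pandas 2.3.3 and matplotlib 3.10.9 were used. Samples were not compared, since there was 1 group, and no test was run. The members, the lists and the alternatives were chosen with earlier results of these data known. Named genes were all 10 members, the nearest protein-coding TSS on each side, the gene nearest each flanking boundary, and from each list the genes within 10 kb and the 2 farthest; other genes of a domain or a bin were named after their values were seen. The alternatives were other windows, strong boundaries alone, other start sites, bin centres, autosomes alone and other matches to the consensus.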

Additional observations from a re-analysis of the deposited data

How the results depend on the processing

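No paired analysis was possible because the libraries formed a single group, and their pooling before the boundary calls meant that neither could be omitted. Values were counted as kept within 1.5 times for counts, 5 kb for lengths and 5% for strengths, and 13 of 26 alternatives to the main values were kept. Strong boundaries alone left 1 gene within 10 kb (Nipbl) and moved the median distance to 159 kb, the median strength to 0.711 and the median domain to 602.5 kb. Over all protein-coding genes distance, strength and domain became 101 kb, 0.920 and 465 kb. In distance and domain the 10 genes thus went from below all genes to above them, and in strength they stayed below. With the nearest start site of any coding transcript the median distance was 46.2 kb and the median domain 225 kb, and Stag1 joined the genes at a boundary, making 4. With RefSeq gene starts 2 genes were within 10 kb (Mau2 and Pds5a), and Nipbl was at 10.3 kb. On autosomes alone the median distance was 43.4 kb, strength 0.440 and domain 187.5 kb, against 55.8 kb, 0.668 and 265 kb over all autosomal protein-coding genes. No TSS (0) lay inside a bin, and 5 lay within 50 kb, where 45.3% of all did. A CTCF match lay inside 2 of the 20 flanking bins, as inside 6.29% of all, and with at most 1 mismatch near all 20, as near 89.1% of all boundaries. For single genes 64 of 80 alternatives were kept.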
